A study of Mus musculus with 60 samples.

Results

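Microglia from mice on postnatal day 4 (P4) were compared with microglia from embryonic day 18 (E18), the step across birth in a developmental time course of RNA sequencing. The 15 libraries were chosen by their titles out of 60 in the series. They comprised 4 female and 4 male libraries at P4, and 3 female and 4 male libraries at E18. All came from untreated C57BL/6N mice. RNA was extracted with TRIzol and sequenced as stranded polyA libraries, and the labels do not say how the cells were isolated from the brain. The series also holds P14 libraries and P60 libraries given saline or LPS, of which the 20 P14 and 12 P60 saline libraries appear below as later levels. Differences between stages are means of the female and the male difference with equal weight. No date written in the sample descriptions was shared by a P4 and an E18 library, so the stage and the day of work cannot be told apart. Nothing in the labels says that the replicates were separate animals or litters, so p-values measure the spread between these libraries, which may be partly technical.

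Microglia are the resident macrophages of the brain parenchyma. They arise from yolk sac progenitors, enter the brain before birth, multiply there, and take on their mature, surveying state in the first weeks after birth. That state depends on signalling through the CSF1 receptor and on TGF-beta, on the lineage factor PU.1 and on Sall1, and it is recognised by genes such as P2ry12, Tmem119 and Cx3cr1. Around birth the cells are rounded, often called amoeboid, and they engulf dying cells and excess synapses.

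The 15 libraries held 1369084 to 3074195 counts each. The libraries at P4 held 1887699 to 3074195 counts and those at E18 held 1369084 to 2758823. Microglial identity was checked on a list of homeostatic microglia genes, which took 1.76% to 3.41% of counts at P4 and 0.934% to 1.36% at E18. Library M_E18 4 stood apart. Transcripts of at most 1500 bases took 45.0% of its counts, against 9.97% to 14.97% at P4 and 10.5% to 22.6% in the other E18 libraries. Ttr, the thyroid hormone carrier made in large amounts by the choroid plexus, took 24.8% of its counts, against 1.27% to 6.02% at P4 and 0.653% to 10.4% in the other E18 libraries. Ttr was not set aside when the share of short transcripts was taken, so the 2 shares can overlap. The same library is titled male but its sex characteristic reads female, and it held 0 counts on the 4 Y-linked genes summed. Xist was at 199 CPM in it, against 2.82 to 26.5 CPM in the other male-titled libraries and 1008 to 3918 CPM in the female-titled ones. For 5 of the 15 libraries title and sex characteristic differ, and in 14 of the 15 the Y-linked counts followed the title. Because of this library, results are given with and without M_E18 4.

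Of 13492 genes tested, 2577 (19.1%) were higher at P4 and 2917 (21.6%) were lower at P4 at an adjusted p below 0.05 by edgeR's quasi-likelihood test with Benjamini-Hochberg adjustment. The median log2 fold change over all tested genes was -0.03. At least 2-fold changes made up 1339 of the rises (9.92% of tested genes) and 1707 of the falls (12.7%). Without M_E18 4, 2899 of 13451 genes (21.6%) were higher and 3554 (26.4%) were lower. Of the genes higher in all 15 libraries, 2501 were also higher without that library, which is 97.1% of the first set and 86.3% of the second. In 1236 genes (9.16%) every P4 library lay above every E18 library in CPM, and in 849 (6.29%) every P4 library lay below. CPM is the usual depth-scaled count, taken here on TMM-scaled library totals. Among called genes with at least 20 CPM in a stage, the 10 largest rises were Mpo, Spn, Chi3l3, Camp, Fcnb, Ngp, Ltf, Emr4, Gm10790 and Slc16a1, at log2 fold changes of 3.01 to 4.55. Without M_E18 4, Mpo stood at 5.83 and Fcnb at 3.87, against 3.27 for Fcnb with it. Mpo, Chi3l3, Camp, Fcnb, Ngp and Ltf belong to a list of neutrophil granule genes. The 10 largest falls were Syt4, Mpped1, Cntn2, Stk32b, Tubb3, Neurod2, Neurod6, Actl6b, Ina and Jph4, at -6.77 to -4.72, with Syt4, Tubb3, Neurod2, Neurod6 and Ina from the list of neuron markers. The shares given here are the background against which the gene lists below are read, and the lists were chosen with earlier results of these data known.

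The fold changes followed transcript length. Over the 1995 genes with transcripts of at most 1500 bases the median log2 fold change was -0.58, and over the 1666 genes with transcripts over 6000 bases it was 0.33. Without M_E18 4 these medians were -0.34 and 0.16. Without M_E18 3 as well, the other E18 library with over 10% of its counts on Ttr, they were -0.25 and 0.11. An added fit with offsets that follow transcript length in each library, chosen after seeing the data, brought them to -0.10 and 0.09. That fit called 2842 of 13430 genes (21.2%) higher and 2933 (21.8%) lower. Its values are given below wherever they change what a list shows.

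**Figure D1:**
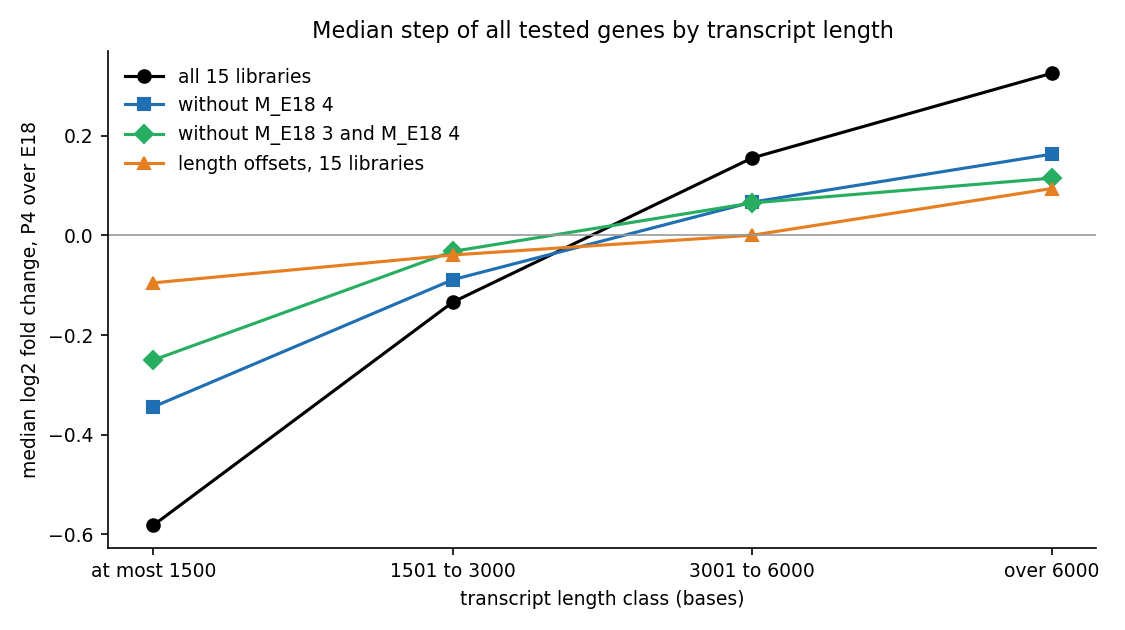
Median log2 fold change of all tested genes, P4 over E18 (vertical axis), in 4 classes of transcript length in bases (horizontal axis), for all 15 libraries, without M_E18 4, without M_E18 3 and M_E18 4, and with length offsets. The medians climb from -0.58 in the shortest class to 0.33 in the longest with all libraries, and from -0.10 to 0.09 with the offsets.

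Promoter windows of genes that rose are shown first, because they were searched for a motif of PU.1, the transcription factor on which the microglial lineage depends. The windows run from 250 bases before to 50 bases after the start site in RefSeq on GRCm38.p6. Windows on a single chromosome were left out, and only the first listed window of each gene was used. With these limits 9598 tested genes had a window matched by symbol. Genes on the chromosome left out are missing from all window counts here and below, whether or not they rose. The PU.1 core GAGGAAGT, read on both strands, was found in 295 of these windows (3.07%). It was found in 73 of 963 windows (7.58%) of genes at least 2-fold higher at P4, and in 18 of 1167 windows (1.54%) of genes at least 2-fold lower. An AP-1 site, TGANTCA, was found in 6.02% of the windows of the higher genes and 4.46% of those of the lower genes, against 4.77% overall. An NF-kB site was found in 4.98% of the windows of the higher genes and 3.51% of those of the lower genes, against 4.25% overall. Both strands were read, matches of the 3 motifs can overlap, and each motif was counted separately. A match describes the letters in the window and is not shown to be a site.

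The 6 windows below read 5′ to 3′ on the strand of the gene, in lower case with the PU.1 core in capitals (as ACTTCCTC where it lies on the other strand). The first 4 belong to the listed genes with the smallest p among the 14 that hold the core and rose at least 2-fold, out of 128 such genes with a window. They are Rel, an NF-kB subunit (chr11:23770920-23771219, minus strand), Ptgs1, the cyclooxygenase COX-1 (chr2:36230176-36230475, plus strand), Pik3cg, a phosphoinositide 3-kinase of leukocytes (chr12:32208610-32208909, minus strand), and Tlr1, a receptor for bacterial lipopeptides (chr5:64933509-64933808, minus strand). The last pair, P2ry12 (chr3:59262936-59263235, minus strand) and P2ry13 (chr3:59210833-59211132, minus strand), are purinergic receptor genes that rose by 2.45 and 2.67 on the log2 scale and hold no copy of these letters.
Rel: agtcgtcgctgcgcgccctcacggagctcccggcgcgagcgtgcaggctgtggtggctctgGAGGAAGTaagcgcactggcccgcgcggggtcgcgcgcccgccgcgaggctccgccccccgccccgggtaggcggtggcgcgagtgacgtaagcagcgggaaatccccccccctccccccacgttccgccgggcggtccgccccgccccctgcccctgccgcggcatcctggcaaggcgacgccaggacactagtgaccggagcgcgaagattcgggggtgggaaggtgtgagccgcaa
Ptgs1: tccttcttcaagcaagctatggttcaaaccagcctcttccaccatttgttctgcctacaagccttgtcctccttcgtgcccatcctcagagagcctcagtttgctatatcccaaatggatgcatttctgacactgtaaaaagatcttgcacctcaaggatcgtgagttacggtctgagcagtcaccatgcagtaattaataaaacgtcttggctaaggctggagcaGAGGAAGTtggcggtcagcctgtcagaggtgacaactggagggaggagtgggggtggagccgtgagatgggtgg
Pik3cg: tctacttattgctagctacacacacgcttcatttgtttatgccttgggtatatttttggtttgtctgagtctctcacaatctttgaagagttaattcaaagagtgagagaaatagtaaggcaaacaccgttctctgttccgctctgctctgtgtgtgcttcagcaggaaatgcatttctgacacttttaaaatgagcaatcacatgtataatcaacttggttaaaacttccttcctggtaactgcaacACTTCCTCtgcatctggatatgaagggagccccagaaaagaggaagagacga
Tlr1: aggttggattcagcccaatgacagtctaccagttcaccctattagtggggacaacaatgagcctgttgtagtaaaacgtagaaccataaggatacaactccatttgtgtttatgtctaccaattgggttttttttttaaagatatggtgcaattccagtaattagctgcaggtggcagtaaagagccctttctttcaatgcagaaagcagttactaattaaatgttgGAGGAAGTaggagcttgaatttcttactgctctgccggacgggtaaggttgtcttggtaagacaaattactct
P2ry12: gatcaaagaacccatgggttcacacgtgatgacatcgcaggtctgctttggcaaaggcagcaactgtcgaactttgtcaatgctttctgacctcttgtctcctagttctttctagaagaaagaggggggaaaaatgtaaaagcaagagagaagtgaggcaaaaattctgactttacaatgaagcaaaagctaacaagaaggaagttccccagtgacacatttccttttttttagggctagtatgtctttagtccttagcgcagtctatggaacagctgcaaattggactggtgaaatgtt
P2ry13: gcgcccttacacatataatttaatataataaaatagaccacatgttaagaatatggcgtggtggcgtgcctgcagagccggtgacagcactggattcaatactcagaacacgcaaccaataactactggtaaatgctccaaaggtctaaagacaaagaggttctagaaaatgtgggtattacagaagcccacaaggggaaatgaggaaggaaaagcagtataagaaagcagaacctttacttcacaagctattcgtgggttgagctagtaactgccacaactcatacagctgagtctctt
The middle of the core lay 20 bases from the start site in Ptgs1, 2 bases in Pik3cg, 19 bases in Tlr1 and 185 bases in Rel.

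Genes of the mature microglial state rose across birth. Of 35 homeostatic microglia genes tested, 30 were higher at P4, none was lower and 5 did not pass, with a median log2 fold change of 1.33 against -0.03 for all genes. In 23 of the 35 every P4 library lay above every E18 library. P2ry12, a receptor for ADP that steers microglial processes towards injury, had 892, 1427, 1454 and 1281 CPM in the P4 females and 699, 1165, 1060 and 1812 CPM in the P4 males, against 365, 153 and 256 CPM in the E18 females and 294, 217, 163 and 105 CPM in the E18 males. All P4 libraries were above all E18 libraries, and the lowest value was that of M_E18 4. The log2 fold change was 2.45 ± 0.28 (SE, adjusted p = 1.1e-05), and 2.30 without M_E18 4. P2ry13, another ADP receptor, rose by 2.67 ± 0.27 on the log2 scale, with 212 to 592 CPM at P4 against 30.7 to 83.3 CPM at E18.

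Cx3cr1, the receptor for the neuronal chemokine fractalkine, had 1399, 2159, 2028 and 2300 CPM in the P4 females and 1152, 1752, 1675 and 2859 CPM in the P4 males, against 642, 533 and 383 CPM in the E18 females and 546, 334, 295 and 81.5 CPM in the E18 males. The stages did not overlap, and M_E18 4 was far below the other E18 libraries. Its log2 fold change was 2.24 ± 0.33 with that library and 2.04 without it. The engulfment receptor kinase Mertk (2.13 ± 0.31), the receptor Gpr34 (1.94 ± 0.26) and the lectin Siglech (1.92 ± 0.22) rose by similar log2 amounts, each with every P4 library above every E18 library. Tmem119, a microglial surface protein, was at 76.6 to 186 CPM at P4 and 21.0 to 71.4 CPM at E18 (1.56 ± 0.29, adjusted p = 0.00056).

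The 5 members that did not pass were Gpr56, Cst3, Crybb1, Ecscr and Trem2. Gpr56, an adhesion receptor that marks microglia of yolk sac origin, was at 190 to 284 CPM at P4 and 118 to 375 CPM at E18 (0.03 ± 0.24, adjusted p = 0.94). Trem2, a lipid receptor needed for phagocytosis, was at 169 to 357 CPM at P4 and 92.8 to 367 CPM at E18, the highest value being that of M_E18 4. Its log2 fold change was 0.65 ± 0.27 with that library (adjusted p = 0.064) and 0.82 without it (adjusted p = 0.0058). Cst3, a secreted protease inhibitor with a short transcript, was likewise highest in M_E18 4, at 2566 CPM, and its change was 0.31 (adjusted p = 0.40) with and 0.60 (adjusted p = 0.013) without that library. Without M_E18 4, 33 of the 35 homeostatic genes were higher, beside 21.6% of all genes, and with length offsets also 33, beside 21.2%.

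**Figure D2:**
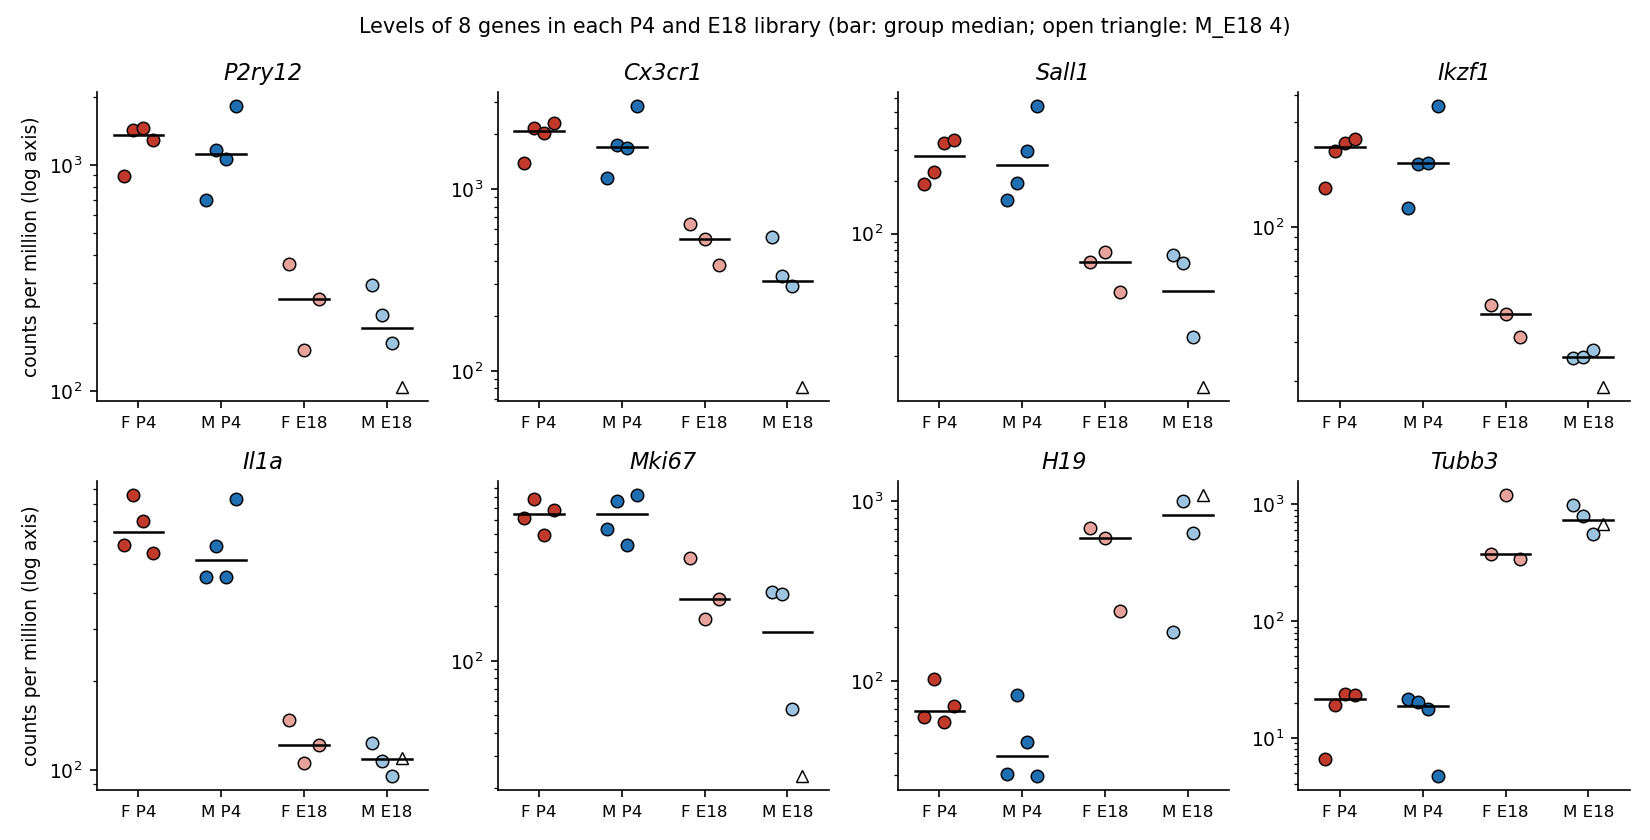
Levels in CPM on log axes (vertical) of P2ry12, Cx3cr1, Sall1, Ikzf1, Il1a, Mki67, H19 and Tubb3 in each library, for P4 females, P4 males, E18 females and E18 males (horizontal), with bars at group medians and M_E18 4 as an open triangle. All P4 libraries lie above all E18 libraries for the first 6 genes and below them for H19 and Tubb3.

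Transcription factors listed for microglia rose with them. Egr1, Jun, Junb, Atf3, Nr4a1, Klf2 and Klf4 of this list are also on the list of immediate early genes described below. Of 33 tested, 28 were higher and none was lower, with a median log2 fold change of 0.91. Ikzf1, the lymphoid and myeloid zinc finger factor Ikaros, had 150, 223, 241 and 253 CPM in the P4 females and 123, 195, 196 and 356 CPM in the P4 males, against 44.2, 40.2 and 31.5 CPM in the E18 females and 25.4, 25.6, 27.5 and 18.7 CPM in the E18 males. Its log2 fold change of 2.81 ± 0.24 (adjusted p = 6.1e-07) was the largest of the list. Sall1, the zinc finger factor that in the myeloid lineage is restricted to microglia, had 193, 226, 332 and 342 CPM in the P4 females and 156, 196, 298 and 536 CPM in the P4 males, against 68.9, 78.5 and 46.3 CPM in the E18 females and 75.2, 68.2, 25.7 and 13.2 CPM in the E18 males. It rose by 2.38 ± 0.36 with M_E18 4 and by 2.19 without it, and the stages did not overlap in either gene. Maf (1.96 ± 0.33), Fli1 (1.77), Mef2c (1.55 ± 0.32) and Irf8 (1.46 ± 0.21), factors of macrophage and microglial differentiation, also rose. The gene of PU.1, listed in the table as Sfpi1, rose less, by 0.79 ± 0.20 (adjusted p = 0.0054), with overlapping ranges of 89.8 to 174 CPM at P4 and 49.3 to 99.4 CPM at E18.

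Receptors that maintain microglia were higher at P4. Of 24 genes of TGF-beta and CSF1 receptor signalling, 15 rose, none fell and 9 did not pass, with a median of 1.04. Csf1r, the receptor tyrosine kinase on which microglial survival depends, had 2736, 4829, 4244 and 4875 CPM in the P4 females and 2441, 3960, 3849 and 5901 CPM in the P4 males, against 1605, 1988 and 1246 CPM in the E18 females and 1668, 1350, 1114 and 574 CPM in the E18 males. The stages did not overlap, and the log2 fold change was 1.57 ± 0.25. Its ligand Csf1 rose by 0.75 ± 0.26 (adjusted p = 0.029), while the other ligand, Il34, made mainly by neurons, was at 1.53 to 5.83 CPM at P4 and 1.08 to 7.89 CPM at E18 and did not pass (-0.55 ± 0.43). The TGF-beta receptor genes Tgfbr1 (1.45 ± 0.23) and Tgfbr2 (1.52 ± 0.25), Skil, an inhibitor of the SMAD factors (1.89 ± 0.27), and Pik3cg (2.42 ± 0.34) each had every P4 library above every E18 library. Without M_E18 4, 15 of this list rose and 2 fell.

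Genes by which macrophages sense microbes and damage were higher at P4. Of 36 genes for pattern receptors and the NF-kB pathway, 31 were higher at P4 and none was lower, with a median log2 fold change of 1.27. Of the Toll-like receptor genes, Tlr1 rose by 2.07 ± 0.31, Tlr13 by 1.97 ± 0.23, Tlr7 by 1.79 ± 0.29, Tlr2 by 1.74 ± 0.22 and Tlr4 by 1.49 ± 0.25, each without overlap of the stages. Tlr2, a receptor for bacterial lipoproteins, was at 304 to 792 CPM at P4 against 132 to 209 CPM at E18. Nlrp3, the sensor of an inflammasome, was at 327 to 485 CPM at P4 against 36.3 to 112 CPM at E18, and rose by 2.26 ± 0.21 (adjusted p = 1.6e-06). Downstream, Rel (2.12 ± 0.28), the nuclear NF-kB cofactor Nfkbiz (2.33 ± 0.20) and Tnfaip3, an inhibitor of the pathway (1.85 ± 0.31), rose as well. Cd14, Nfkb1, Nfkbib, Tnip1 and Traf6 did not pass. Nfkb1 was at 0.76 ± 0.30 (adjusted p = 0.054) and Cd14, a co-receptor for LPS, at 0.50 ± 0.23 (adjusted p = 0.095). Without M_E18 4 both passed, Nfkb1 at an adjusted p of 0.048 and Cd14 at 0.025.

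Cytokine genes were also higher at P4 in these untreated cells. Of 26 cytokine and chemokine genes, 15 were higher at P4, 1 was lower and 10 did not pass, with a median of 1.22. Il1a, an interleukin that acts as an alarm signal, had 582, 854, 698 and 545 CPM in the P4 females and 451, 577, 452 and 830 CPM in the P4 males, against 148, 105 and 122 CPM in the E18 females and 123, 107, 95.4 and 110 CPM in the E18 males. Its log2 fold change was 2.41 ± 0.20 (adjusted p = 4.5e-07), and M_E18 4 lay among the other E18 libraries. Il1b had 215, 404, 391 and 534 CPM in the P4 females and 153, 322, 261 and 581 CPM in the P4 males, against 76.0, 78.5 and 48.7 CPM in the E18 females and 67.7, 66.5, 81.0 and 142 CPM in the E18 males. It rose by 2.20 ± 0.30, and here M_E18 4 was the highest E18 library, still below the lowest P4 library. Oncostatin M, Osm (2.60 ± 0.31), Tnf (1.81 ± 0.26) and the chemokines Ccl3 (2.01 ± 0.27), Ccl4 (1.97 ± 0.28) and Cxcl10 (2.19 ± 0.26) rose without overlap.

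Il6 was low throughout, at 6.22, 11.3, 4.76 and 7.13 CPM in the P4 females and 5.10, 8.14, 3.73 and 4.38 CPM in the P4 males, against 1.19, 0.395 and 0 CPM in the E18 females and 1.08, 0.341, 1.06 and 0 CPM in the E18 males. The stages did not overlap, with a log2 fold change of 3.23 ± 0.46. The chemokine gene that fell was Pf4, platelet factor 4, also a gene of macrophages at the brain's borders, at 7.39 to 62.6 CPM at P4 and 31.9 to 261 CPM at E18 (-1.66 ± 0.45). Its highest value was that of M_E18 4, without which the change was -1.42 (adjusted p = 0.010). Immediate early genes, which respond within minutes to stimuli and to handling of cells, moved beside the cytokines. Of 27, 17 were higher and none was lower, with a median of 0.86. Egr1, Jun, Junb, Atf3, Nr4a1, Klf2 and Klf4 are also on the transcription factor list, so the 2 lists are not separate results. Among them Zfp36, which destabilises cytokine mRNAs, rose without overlap of the stages, Btg2 rose by 1.74 ± 0.26, Egr1 by 1.48 ± 0.23 and Fos by 0.66 ± 0.19. Their part in the cytokine result was not tested.

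Genes of engulfment, complement and antigen presentation were in part higher at P4. Of 29 phagocytic and Fc receptor genes, 16 rose, 1 fell and 12 did not pass (median 0.83). The immunoglobulin receptor genes Fcgr1 (1.60 ± 0.24) and Fcgr2b (1.23 ± 0.22) and Dock2, a regulator of the actin skeleton (1.84 ± 0.31), were higher in every P4 library than in any E18 library. The gene that fell was Bai1, an adhesion receptor also abundant in neurons, at 6.40 to 13.8 CPM at P4 and 3.30 to 52.5 CPM at E18 (-1.64 ± 0.38). Of 20 complement genes, 11 rose and 1 fell (median 0.74), and their log2 fold change and transcript length had a Spearman rho of 0.77. Itgam, the CD11b chain of complement receptor 3, was at 475 to 1137 CPM at P4 against 68.3 to 263 CPM at E18 (1.97 ± 0.26). C3, the central complement component, was at 38.6 to 274 CPM at P4 and 2.20 to 31.3 CPM at E18 (2.08 ± 0.52), and C4b rose by 2.73 ± 0.51. Serping1, an inhibitor of C1, was lower in every P4 library than in any E18 library (-0.85 ± 0.22).

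The chains of C1q, the protein that tags synapses for removal, were called or not depending on M_E18 4 and on the scaling for length. C1qa was at 512 to 1082 CPM at P4 and 297 to 1036 CPM at E18, and its log2 fold change was 0.52 ± 0.26 (adjusted p = 0.12) with that library, 0.62 (adjusted p = 0.043) without it and 0.97 (adjusted p = 0.0022) with length offsets. C1qb did not pass with M_E18 4 or without it (0.41 and 0.52), and C1qc rose by 0.63 ± 0.23 (adjusted p = 0.036). Of 41 lysosomal genes, 21 rose and none fell (median 0.55), and without M_E18 4 the number was 30. Cd68, a lysosomal membrane protein of phagocytes, was at 248 to 443 CPM at P4 against 110 to 165 CPM at E18 (1.24 ± 0.18). Of 19 MHC class I genes 11 rose and of 9 MHC class II genes 5 rose, with none lower in either list. H2-K1 rose by 1.02 ± 0.20 and Cd74, the MHC class II chaperone, by 1.15 ± 0.21. Genes induced by type I interferon did not move as a group. Of 32, 6 rose, 2 fell and 24 did not pass (median -0.09), the falls being the ubiquitin-like Isg15 and the factor Irf7, neither of which passed without M_E18 4 (adjusted p = 0.056 for Isg15 and 0.051 for Irf7).

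**Figure D3:**
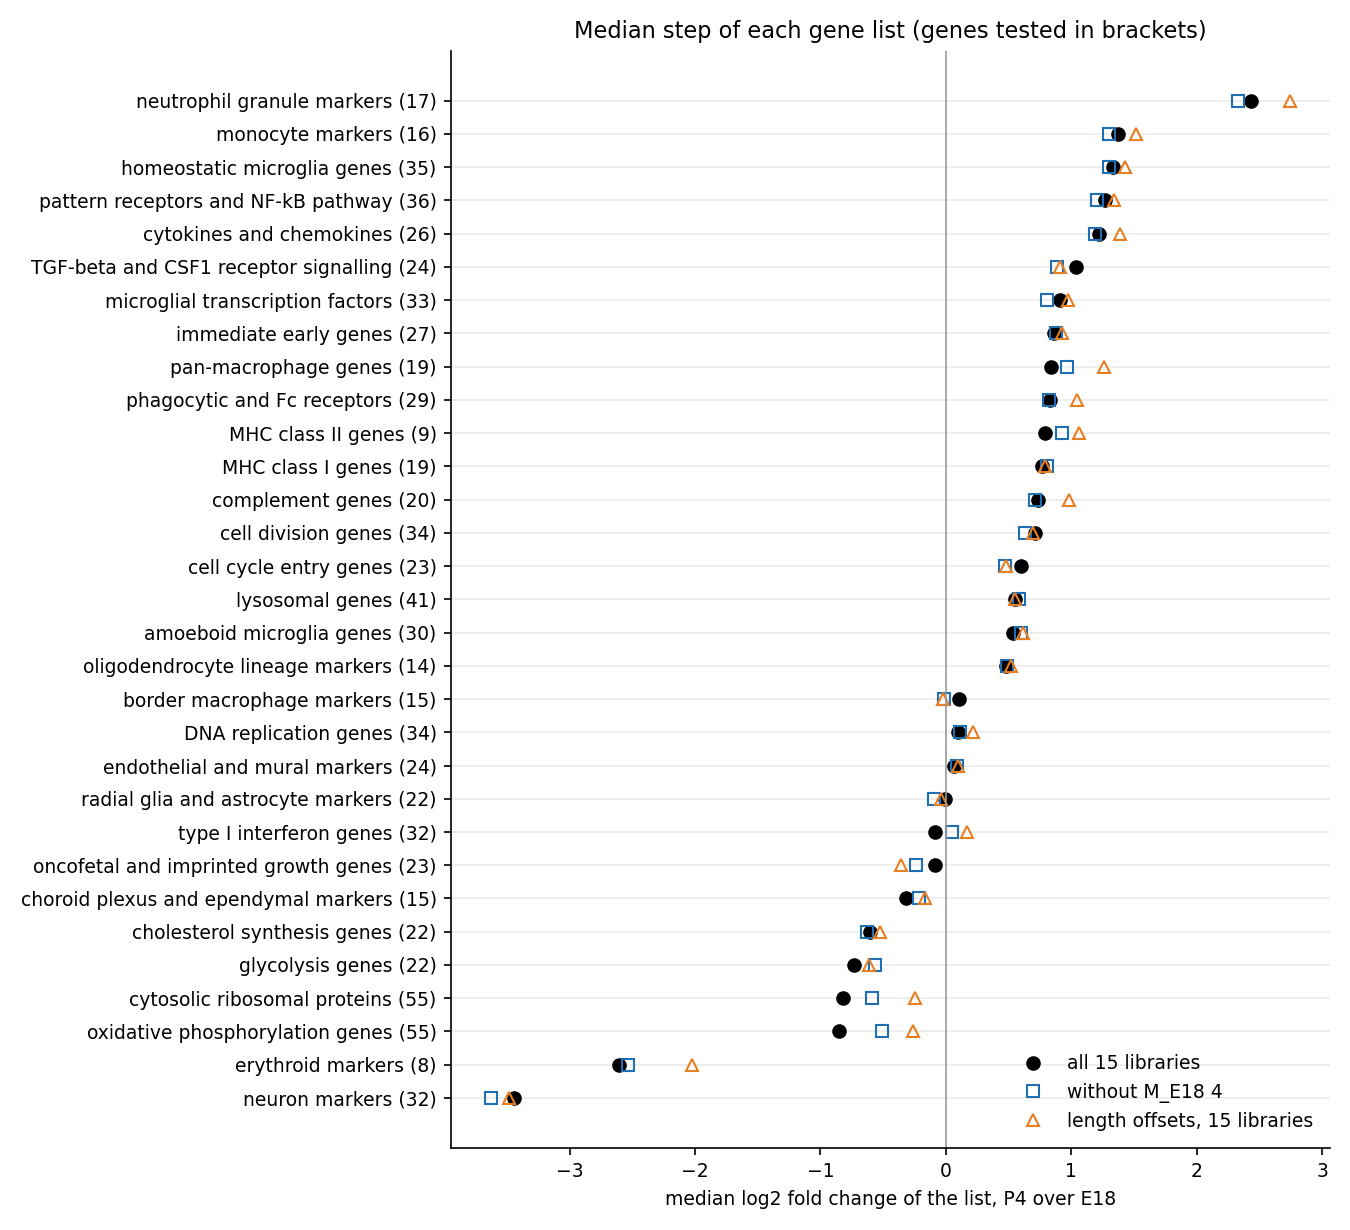
Median log2 fold change, P4 over E18 (horizontal axis), of 31 gene lists (vertical axis, genes tested in brackets), for all 15 libraries, without M_E18 4 and with length offsets. The homeostatic list sits at 1.33, 1.30 and 1.42 in the 3 settings, and the oxidative phosphorylation list at -0.85, -0.51 and -0.26.

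Cell division genes were higher at P4, and they differed among themselves by transcript length. Of 34, 23 rose, none fell and 11 did not pass (median 0.71), in all 15 libraries as without M_E18 4. Mki67, the gene of the proliferation antigen Ki-67, had 615, 781, 498 and 677 CPM in the P4 females and 531, 767, 436 and 819 CPM in the P4 males, against 370, 171 and 219 CPM in the E18 females and 239, 235, 54.2 and 23.1 CPM in the E18 males. The stages did not overlap, M_E18 4 and M_E18 3 were lowest, and the log2 fold change was 1.77 ± 0.40, or 1.55 without M_E18 4. Anln, a scaffold of the cleavage furrow (1.52 ± 0.23), and the mitotic motor gene Cenpe (1.35 ± 0.33) also rose without overlap. Top2a, the topoisomerase of dividing cells, rose by 0.99 ± 0.29. Ube2c (-0.11), Cdk1 (0.01), Birc5 (0.08) and Cdc20 (0.11), which act in the same divisions, did not pass. Without M_E18 4, Cdk1 passed (0.42, adjusted p = 0.040). Over the 34 genes the log2 fold change and the transcript length had a Spearman rho of 0.55, a description of genes measured in the same libraries. With length offsets 23 again rose and none fell (median 0.69), and Ube2c stood at 0.34 (adjusted p = 0.16).

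Genes of DNA replication did not follow. Of 34, 8 rose, 4 fell and 22 did not pass, with a median of 0.10. Clspn, a mediator of the replication checkpoint, rose by 1.40 ± 0.32, while Dut, which clears dUTP, fell by 0.97 on the log2 scale (SE 0.29) and Mcm7, a subunit of the replicative helicase, by 0.79. Pcna, the sliding clamp, was at 57.2 to 107 CPM at P4 and 52.1 to 128 CPM at E18 (0.09 ± 0.18, adjusted p = 0.72). Among 23 genes of cell cycle entry, 8 rose and 4 fell. The pocket protein gene Rbl1 (1.61 ± 0.23) and the repressor E2f8 (1.52 ± 0.30) rose, and cyclin D1, Ccnd1, rose by 0.66 ± 0.19 without overlap of the stages. Mycn, a transcription factor of neural progenitors (-2.21 ± 0.35), Cdk4 (-1.44 ± 0.26) and the cell cycle inhibitor Cdkn1c (-1.61 ± 0.23) fell, with every P4 library below every E18 library.

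The amoeboid genes split. Of 30 listed for the rounded perinatal state, 13 rose, 3 fell and 14 did not pass (median 0.53). Spp1, osteopontin, had 461, 1064, 562 and 2006 CPM in the P4 females and 347, 747, 353 and 603 CPM in the P4 males, against 871, 271 and 746 CPM in the E18 females and 515, 339, 661 and 1467 CPM in the E18 males. The ranges overlapped widely, and no difference was detectable (0.08 ± 0.38, adjusted p = 0.88). The integrin gene Itgax (1.69 ± 0.31), the fungal receptor Clec7a (1.31 ± 0.23), lipoprotein lipase, Lpl (1.55 ± 0.35), and the growth factor Igf1 (0.94 ± 0.21) rose. The members that fell were Fabp5, a fatty acid carrier (-1.46 ± 0.23), Tmsb10 and Anxa2. Apoe, the lipid carrier, did not pass in all 15 libraries (0.52 ± 0.20, adjusted p = 0.051) and passed without M_E18 4 (0.62, adjusted p = 0.0046).

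Fetal and imprinted growth genes fell in part. Of 23, 11 were lower, 2 were higher and 10 did not pass (median -0.09). H19, an imprinted non-coding RNA of fetal tissues, had 63.4, 102, 59.0 and 72.8 CPM in the P4 females and 30.6, 83.5, 45.8 and 29.6 CPM in the P4 males, against 709, 618 and 244 CPM in the E18 females and 187, 999, 660 and 1072 CPM in the E18 males. The stages did not overlap, and the log2 fold change was -3.38 ± 0.37. Nnat, an imprinted gene of neural cells, also fell (-3.20 ± 0.30). Igf2, the imprinted neighbour of H19, was at 477 to 1523 CPM at P4 and 505 to 1353 CPM at E18 and did not pass (-0.08 ± 0.30). Lin28b, a fetal RNA-binding protein, was at 1.60 to 7.00 CPM at P4 and 0 to 5.52 CPM at E18 and did not pass either (0.78 ± 0.44, adjusted p = 0.16). Arid3a (1.14 ± 0.34) and Impact (0.75) were the members that rose.

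Ribosomal and metabolic genes were lower at P4, by amounts that depended on the library and on length. Of 55 cytosolic ribosomal protein genes, 34 fell and none rose (median -0.82), and of 55 oxidative phosphorylation genes 32 fell and none rose (median -0.85). The ribosomal list took 0.453% to 0.542% of counts at P4 against 0.576% to 1.71% at E18, and M_E18 4 was the highest, the other E18 libraries reaching 1.15%. Without M_E18 4 the medians were -0.59 for the ribosomal and -0.51 for the oxidative phosphorylation list, with 36 of 52 and 33 of 55 genes lower. With length offsets 16 ribosomal genes fell and 2 rose (median -0.24), and 13 oxidative phosphorylation genes fell (median -0.26), beside 21.8% of all genes lower. In the females 0 genes of either list passed, beside 7.95% of all genes lower, and in the males 36 ribosomal and 49 oxidative phosphorylation genes fell, beside 18.7%. No gene passed the test of the male step minus the female step, so these counts do not show that the sexes differ.

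Glycolysis and cholesterol synthesis genes were lower in similar numbers with and without the length offsets. Of 22 glycolysis genes 13 fell and 3 rose (median -0.74), and with the offsets the numbers were again 13 and 3 (median -0.62). Tpi1 (-1.40 ± 0.32) and Ldha, which makes lactate (-1.35 ± 0.31), were lower in every P4 library than in any E18 library. The hexokinase genes Hk2 (1.55 ± 0.27) and Hk3 (1.22 ± 0.20), with Pfkfb3, were the members that rose. Of 22 cholesterol synthesis genes, 14 fell and none rose (median -0.60), and 15 fell with the offsets. Fdps, which makes farnesyl diphosphate (-1.53 ± 0.26), and Sqle, squalene epoxidase (-0.84 ± 0.16), were lower in every P4 library. Slc16a1, a transporter of lactate and ketone bodies, was among the 10 largest rises of all genes with at least 20 CPM in a stage, at 298 to 781 CPM at P4 against 37.3 to 113 CPM at E18 (3.01 ± 0.31).

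The largest falls were neuronal. Of 32 neuron markers, 31 were lower at P4 and none was higher, with a median log2 fold change of -3.45, and the list took 0.0205% to 0.0610% of counts at P4 against 0.108% to 0.704% at E18, the lowest E18 share being that of M_E18 4. Tubb3, the neuronal tubulin, had 6.61, 19.3, 23.8 and 23.4 CPM in the P4 females and 21.4, 20.1, 17.6 and 4.72 CPM in the P4 males, against 376, 1194 and 342 CPM in the E18 females and 985, 789, 554 and 674 CPM in the E18 males. The stages did not overlap, with a log2 fold change of -5.34 ± 0.41. Syt4, a vesicle protein (-6.77 ± 0.59), was the largest fall of all genes with at least 20 CPM in a stage, and the neuronal factor Neurod2 fell by 5.14 on the log2 scale. Dcx, doublecortin of migrating neurons, was at 10.4 to 87.4 CPM at P4 and 68.3 to 1006 CPM at E18 (-3.65 ± 0.51). Of 8 erythroid markers 7 fell (median -2.60), and the list took 0.0226% to 0.0871% of counts at P4 and 0.0757% to 0.399% at E18. The table holds the same counts under Hba-a1 and Hba-a2 and under Hbb-b1 and Hbb-b2, near-identical copies, so each pair is a single measurement that the count and the share hold repeatedly. With each pair taken once, 5 of 6 fell. Alas2, the erythroid enzyme of haem synthesis, fell (-1.58 ± 0.39). In bulk RNA fewer cells of a type and less RNA per cell cannot be told apart, for these lists as for the microglial ones.

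**Figure D4:**
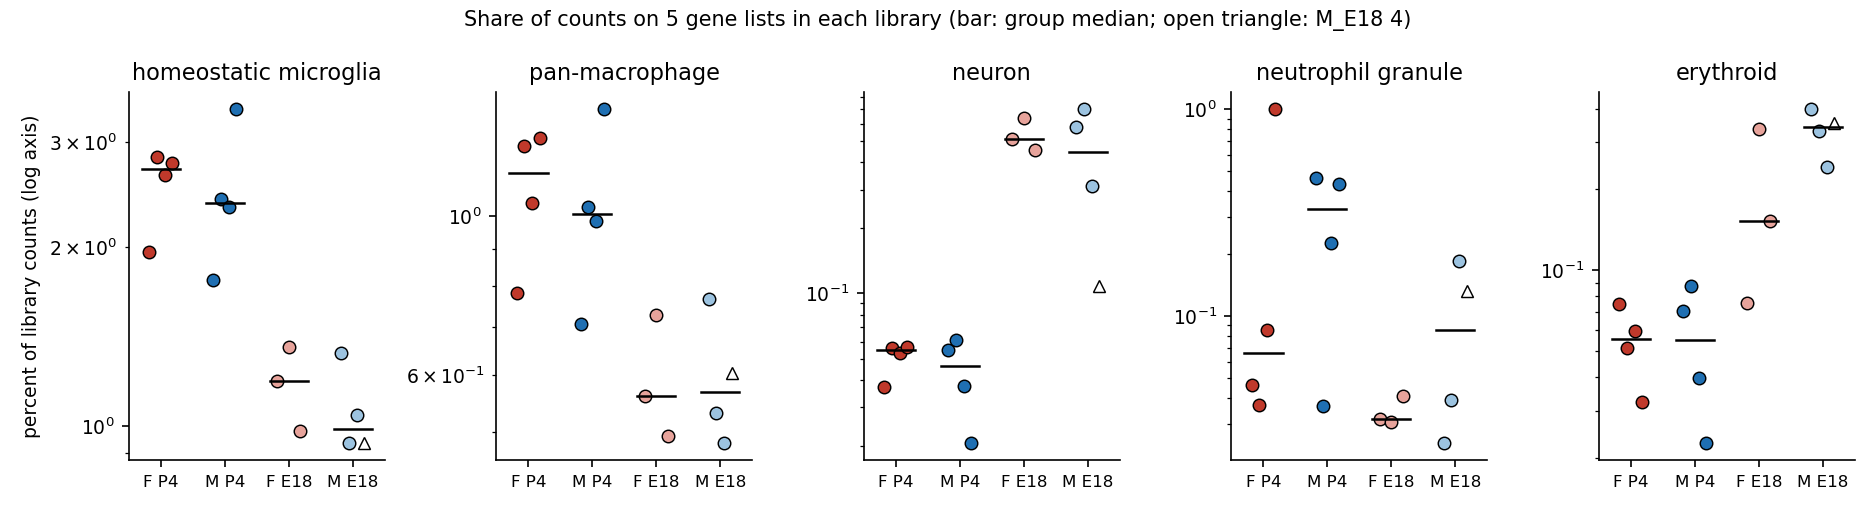
Percent of each library's counts on 5 gene lists (vertical, log axes), for P4 females, P4 males, E18 females and E18 males (horizontal), with bars at group medians and M_E18 4 as an open triangle. Neuron markers reach at most 0.0610% at P4 and at least 0.108% at E18, while neutrophil granule genes spread from 0.0368% to 1.00% among the P4 libraries.

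Blood leukocyte genes were higher at P4, in 2 patterns. Of 17 neutrophil granule genes 12 rose and none fell (median 2.43), but they varied strongly among the P4 libraries. Mpo, myeloperoxidase, had 40.0, 0.840, 35.2 and 42.3 CPM in the P4 females and 123, 0, 2.66 and 36.7 CPM in the P4 males, against 0.398, 0.789 and 0.478 CPM in the E18 females and 0, 1.02, 0.352 and 19.8 CPM in the E18 males. The stages overlapped, and the change was 4.55 ± 1.22 (adjusted p = 0.0078) with M_E18 4, the E18 library in which Mpo was highest, and 5.83 (adjusted p = 0.0013) without it. In no neutrophil gene were all P4 libraries above all E18 libraries, and with a replicate block 6 of the 17 rose and by limma-voom 3. Of 16 monocyte markers 10 rose, 2 fell and 4 did not pass (median 1.37), and here 6 were higher in every P4 library, beside 9.16% of all genes. Of these markers Chi3l3 is also on the neutrophil list and F13a1 on the border macrophage list. Nr4a1 is also on the immediate early and transcription factor lists. Cd300e, a receptor of non-classical, vessel-patrolling monocytes, had 5.83, 9.24, 7.33 and 6.62 CPM in the P4 females and 5.61, 10.7, 7.99 and 10.1 CPM in the P4 males, against 0.398, 0.395 and 2.39 CPM in the E18 females and 0, 0, 0.352 and 0 CPM in the E18 males. Treml4 (2.83 ± 0.32), Ear2 (3.54 ± 0.42) and, outside the list, Spn, the sialophorin CD43 (3.54 ± 0.42), shared that pattern. Ccr2, of classical monocytes, was at 5.33 to 22.9 CPM at P4 and 2.87 to 7.39 CPM at E18 (1.58 ± 0.34).

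These leukocyte genes moved in the same direction as the receptor and cytokine genes above. The neutrophil list took 0.0368% to 1.00% of counts at P4 and 0.0241% to 0.185% at E18, and the monocyte list 0.169% to 0.363% at P4 and 0.0612% to 0.261% at E18. Chi3l3 is counted in both shares. Their part in the receptor and cytokine results was not tested. Of the 18 neutrophil genes in the table, 17 had enough counts to be tested, and of 16 lymphocyte markers only 2 did, of which Cd79b rose, with Cd3e at 0 in the stage means. Of 15 markers of macrophages at the brain's borders, 2 rose, 2 fell and 11 did not pass (median 0.11), so Lyve1 (-0.33 ± 0.53) and Mrc1 (1.06 ± 0.42, adjusted p = 0.055) showed no change that passed. Glial genes were mixed. Of 22 radial glia and astrocyte markers, 3 rose, 5 fell and 14 did not pass, beside 19.1% of all genes higher and 21.6% lower. Their log2 fold change and transcript length had a Spearman rho of 0.70. Those that rose had transcripts of 2648 to 11595 bases and those that fell 536 to 2814 bases. Aqp4, the water channel of astrocyte endfeet, was at 2.78 ± 0.35, Gfap at 1.51 ± 0.19 and Pax6, of radial glia, at -1.42 ± 0.32. Of 14 oligodendrocyte markers 5 rose and none fell, Enpp6 (3.36 ± 0.62) and Mbp (1.92 ± 0.32) among them. Of 24 endothelial and mural markers 1 rose, 2 fell and 21 did not pass. Of 15 choroid plexus and ependymal markers 3 rose, none fell and 12 did not pass (median -0.32), and the list took 1.38% to 6.36% of counts at P4 and 0.719% to 25.8% at E18.

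Counts on pan-macrophage genes, which any macrophage expresses, made up 0.707% to 1.41% of counts at P4 and 0.483% to 0.766% at E18, and 14 of 19 such genes rose (median 0.84). Over the 19 genes the log2 fold change and the transcript length had a Spearman rho of 0.80. Those that rose had transcripts of 875 to 5074 bases and those that did not pass 564 to 1088 bases. Scaled on this list instead of on all genes, the median of all genes moved to -0.87 and 294 genes (2.18%) were higher and 7353 (54.5%) were lower. On that scale 17 of 35 homeostatic genes were higher and 1 was lower (median 0.43), so P2ry12 stood at 1.48, Cx3cr1 at 1.29, Sall1 at 1.43 and Ikzf1 at 1.86. Of the cytokine genes 10 were higher and 6 lower, and of the pattern receptor and NF-kB genes 9 were higher and 1 was lower. Transcription factors had a median of 0.01 with 4 higher and 1 lower, immediate early genes a median of 0.00, and Tmem119 a value of 0.75. No cell division gene was higher and 6 were lower (median -0.14), and Sfpi1, Csf1, C1qc, Fos and Ccnd1, which rose against all genes, had negative values. Sfpi1 and C1qc are members of the scaling list. Members that rose less than the list total come out negative on this scale by construction.

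The step was then set out by sex. In females 719 genes (5.33%) were higher and 1072 (7.95%) were lower at P4, and in males 2004 (14.9%) were higher and 2524 (18.7%) were lower. Without M_E18 4, 1354 (10.1%) were higher and 1992 (14.8%) were lower in females, and 2029 (15.1%) were higher and 2534 (18.8%) were lower in males. With all libraries, P2ry12 changed by 2.60 in males and 2.29 in females, Sall1 by 2.68 and 2.08, Il1a by 2.41 and 2.42, and Mki67 by 2.20 and 1.34. The male values include M_E18 4, which held no Y-linked counts and had the lowest E18 levels of P2ry12, Sall1 and Mki67. Values by sex without that library are not given for these genes, so their larger male steps may rest in part on it. The test of the difference, the male step minus the female step, called 0 of 13492 genes by edgeR and 0 by DESeq2, with 248 genes at an unadjusted p below 0.05 by edgeR and 452 by DESeq2. The 10 genes of smallest p, none of them past the threshold, were Ddx25, Ugt2a2, Ranbp17, 1500009L16Rik, Pdlim4, Ugt2a1, 1810063B05Rik, Peg12, Fkbp2 and Fam92b. The same count of 0 was found without M_E18 4. With 3 or 4 libraries a group, this does not show that the step is alike in the sexes.

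Later levels, in the same CPM scale and not tested here, placed the step in the time course. P2ry12 averaged 4718 CPM in the P14 libraries and 6560 CPM in the P60 saline libraries, and Tmem119 784 and 1730 CPM. In CPM most of the climb of both genes followed P4. Ikzf1 averaged 366 and 465 CPM, against a mean of 217 CPM at P4. Mki67 averaged 164 CPM at P14 and 28.1 CPM at P60, so that P4 was its highest stage, as it was for Anln (16.6 and 5.15 CPM). Spp1 and Igf1, high at both early stages, averaged 28.5 and 29.4 CPM at P14. Tubb3 averaged 7.98 CPM at P14 and 0.590 CPM at P60, and Cd300e 1.57 and 1.11 CPM.

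**Figure D5:**
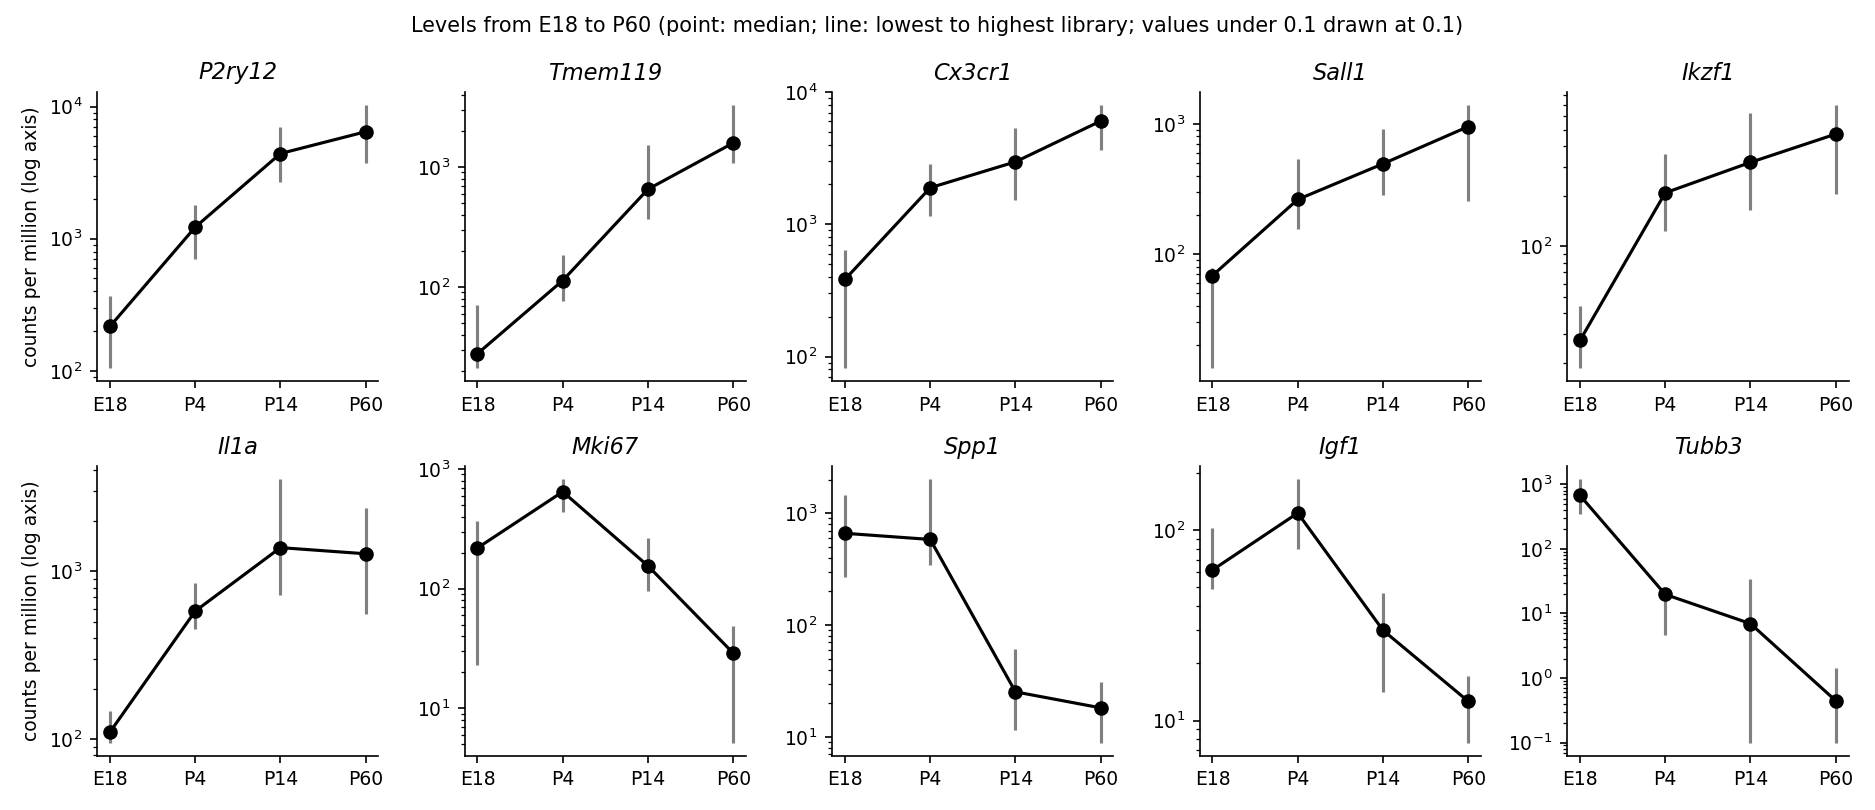
Levels in CPM (vertical, log axes) of 10 genes at E18, P4, P14 and P60 with saline (horizontal), as medians with lines from the lowest to the highest of 7, 8, 20 and 12 libraries. P2ry12, Tmem119, Cx3cr1 and Sall1 climb at each stage, while Mki67 and Igf1 peak at P4.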

How the data were processed

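RNA sequencing counts of microglia were used as the authors deposited them, as whole-number counts per transcript row. Per the submitters' processing notes, CASAVA 1.8.2, the mm9 genome and edgeR were used, and no aligner or counter is named there. For each of 22869 genes the row marked in the table was taken (21988 genes), or else the row of highest total (881 genes). Sex and stage came from the sample titles. The 8 P4 and 7 E18 libraries were filtered with filterByExpr, scaled by TMM and fitted in edgeR 4.0.16 (R 4.3.3) with 4 groups of sex and stage and robust quasi-likelihood tests, two-sided, with Benjamini-Hochberg adjustment over all genes tested. SE is the log2 fold change divided by the root of F. Transcript lengths came from the GENCODE vM21 transcripts, by accession for 22232 genes and by symbol for 403. Depth was 1369084 to 3074195 counts, so low genes carry counting error.

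The members and gene lists were chosen with earlier results of these data known. Genes named were the 10 largest rises and falls among called genes with at least 20 CPM in a stage, up to 3 called members of each list by p and 2 in the other direction, the 10 genes of smallest p for the male minus the female step, 17 genes chosen by name, and further list members given with their values. Deviations from the group means of same-numbered P4 and E18 libraries correlated at 0.15, 0.32 and 0.48 in females, all above the limit of 0.1 taken for pairing, and at -0.05, 0.32, 0.12 and 0.06 in males, where 2 of 4 were below it. Same-numbered male and female libraries at P4 correlated at 0.42 to 0.52, each best with its own number. At E18 they correlated at 0.19, -0.12 and 0.33 for numbers 1, 2 and 3, and number 2 was not best with its own. The labels do not say what a number stands for, so the fit has no replicate block and the blocked fit is an alternative. The main fit takes all libraries as independent. Where same-numbered libraries of a stage are related, its p-values for P4 against E18 can be too small. The block joins each number across both stages, so it does not model a link within a single stage. Alternatives were DESeq2 1.42.0, limma-voom 3.58.1 with sample weights, other scalings and filters, the 47 untreated and saline libraries, a replicate block, sex by characteristic, and libraries left out. Length offsets (loess, span 0.5) were chosen after seeing the data. The edgeR test was tested on simulated data of 13492 genes for the P4 against E18 comparison, where it recovered 36% of 2-fold and 92% of 4-fold changes with 4 false calls. The simulation drew independent libraries with equal spread in all groups and few changed genes. It held no library like M_E18 4 and no dependence on transcript length, so its false calls do not measure the error rate in these data.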

Additional observations from a re-analysis of the deposited data

Results flagged for a closer look

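In groups of 4 libraries, the gap between the most extreme library and its neighbour was compared with Dixon's 95% critical value for 15 genes and 3 library measures, in 54 groups in all. Chance flags about 1 in 20 groups, and 3 were flagged. Ngp, a neutrophil granule gene, was at 2589 CPM in F_P4 4, against 45.4 to 178 CPM in the other P4 females. Mpo was at 19.8 CPM in M_E18 4, against at most 1.02 CPM in the other E18 males. Cd300e was at 0.352 CPM in M_E18 3, where the other E18 males were at 0, a difference of a single count.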

How the results depend on the processing

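All 4 comparisons were recomputed under 30 other settings. P4 against E18 gave 4364 to 6453 genes with 1 library left out at a time (2089 to 3049 higher, 2275 to 3554 lower). Scaling on the pan-macrophage list gave 294 higher and 7353 lower, and in the other settings both directions stayed within 1.5 times. In females, leaving out 1 library gave 939 to 3346 genes (316 to 1354 higher, 623 to 1992 lower). Of the other settings, the female counts moved with DESeq2 (1108 higher), the 47-library fit (1447 higher), length offsets (2779, of which 1287 higher), length offsets without M_E18 4 (3705, 1799 higher and 1906 lower), limma-voom with sample weights (4485, 2267 higher and 2218 lower), pan-macrophage scaling (4891, 62 higher and 4829 lower), sex by characteristic (2767, 1237 higher) and without the libraries over 10% Ttr (3753, 1585 higher and 2168 lower). In males, leaving out 1 library gave 2796 to 5836 genes (1320 to 2753 higher, 1476 to 3083 lower), pan-macrophage scaling gave 221 higher and 4893 lower, and sex by characteristic gave 2386 (1043 higher and 1343 lower). The male step minus the female step gave 0 genes in every setting in which it could be fitted. With the replicate block, 2792 genes were higher and 2892 lower at P4 (558 and 884 in females, 2162 and 2154 in males), and of the 174 genes described 6 lost and 4 gained a call. Of the 174 genes described, 144 passed, and 123 of these passed with the same sign in every setting that tested them, other than the pan-macrophage scaling. Some settings did not test all of the genes described. On that scaling 8 changed sign, namely Sfpi1 (-0.083), Csf1 (-0.21), Fos (-0.25), C1qc (-0.21), Ccnd1 (-0.18), Cd79b (-0.018), Impact (-0.11) and Pfkfb3 (-0.25), and 7 that had not passed were called lower, namely Gpr56 (-0.81), Cdk1 (-0.73), Birc5 (-0.72), Cdc20 (-0.66), Pcna (-0.72), Nfkbib (-0.81) and Spp1 (-0.83). Another 35 that had passed lost the call on that scaling with the sign kept, and 6 that had not passed gained a call with the sign kept. The cause of these changes was not tested, and Sfpi1 and C1qc are themselves members of the scaling list. Depth limits what can be called among genes of a few CPM.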
